A study of Homo sapiens with 12 samples.

Results

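The genes described here carried an m6A peak in every trastuzumab-sensitive library and in no trastuzumab-resistant one. N6-methyladenosine (m6A) was mapped by MeRIP-seq: an anti-m6A antibody enriches methylated fragments of RNA (IP), which are sequenced together with unenriched input RNA. Resistant cells were BT474.TtzmR, a derivative of BT474 resistant to trastuzumab (Herceptin), and sensitive cells were BT474, a human mammary carcinoma line that overexpresses ERBB2, the receptor trastuzumab binds. Both lines grew in the same serum-containing medium, and each gave 3 IP and 3 input libraries. Whether the resistant line is 1 clone is not given in the sources used here.

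The rule asked for a gene name with at least 1 listed peak in each of the 3 sensitive IP libraries and none in the 3 resistant ones. It found 70 of the 8353 genes with a peak in any of the 6 libraries, or 0.838%. These were 1.37% of the 5097 genes with a peak in all 3 sensitive libraries. The mirror rule found 149 resistant-only genes, 2.64% of the 5646 genes with a peak in all 3 resistant libraries. With the same number of peaks per list, the counts were 113 sensitive-only and 101 resistant-only genes, so their order depends on list length. The presence and strength of peaks chose these genes, so their enrichment is given as a description with no test. A gene without a listed peak may still carry m6A below the calling limit, and fewer RNA molecules of a gene or less m6A per molecule cannot be told apart here. The amount of RNA was not analysed here. Separate cultures are not named for the replicates, so their spread, and any p based on it, may be technical.

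m6A is written onto adenosines of messenger RNA in the nucleus by a methyltransferase complex built around METTL3 and METTL14, and it can be removed by the demethylases FTO and ALKBH5. It is commonest in long internal exons, around stop codons and along 3′ untranslated regions (UTRs). Reader proteins of the YTH family bind it and alter the stability, translation or export of the transcript.

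The lists of the resistant libraries were longer, with 30767 to 32638 peaks on 6516 to 6816 genes, than those of the sensitive libraries, with 26028 to 29063 peaks on 5982 to 6391 genes. Because isoforms each have their own row, rows of a gene that shared at least 1 exonic base were merged into regions. Read depth per library is unknown. Among 15 markers of luminal breast cancer with amplified ERBB2, 12 had a peak in all 3 resistant and 13 in all 3 sensitive libraries, ERBB2 and KRT8 among them. Among the luminal markers, GRB7 had a peak in 3 resistant and 0 sensitive libraries, ESR1 in 1 and 0, PGR in 1 and 3, and GATA3 in 2 and 3. None of 4 leukocyte and 3 endothelial markers had a peak in any library. Of 7 basal and mesenchymal markers, 6 had none, and VIM had a peak in 1 library of each line. Of 3 fibroblast markers, 2 had none, and COL1A1 had a peak in all 3 libraries of each line.

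The 70 genes held 143 merged regions over the sensitive libraries. Of these regions, 61 were found in all 3 libraries, 30 in 2 and 52 in 1. A region found in all 3 was present on 55 genes. The other 15 genes had a peak in each library, but not over a common stretch: C1orf170, MVD, PCED1B, PCYOX1L, PIGG, PISD, PLEKHD1, TCHH, TDG, TUBGCP5, UGT1A1, UGT1A10, VIPR2, ZNF778 and ZNF785. By the number of regions, 35 genes had 1, 21 had 2 and 14 had 3 or more, with a maximum of 15 on the mucin gene MUC19. UGT1A1 and UGT1A10 encode drug- and bilirubin-conjugating enzymes made from shared last exons, and their peaks lay over the same stretch as each other and as peaks of UGT1A6, so the 70 names stand for 69 separate stretches.

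Fold enrichment, the authors' ratio for each peak, ranged widely among the genes. For each gene the highest fold in each library was taken. The lowest of its 3 values ran from 1.54 to 21.2, with a median of 4.195 (3 libraries, 70 genes). It was below 5 for 43 genes, from 5 to below 10 for 11 and at least 10 for 16. The libraries gave close values for many genes: the highest of the 3 was at most 1.5 times the lowest for 33 genes, and more than 3 times for 14. These values can come from different regions of a gene. In sensitive replicates 1, 2 and 3 the median highest fold was 5.06, 5.635 and 6.255 for the 70 genes and 4.72, 4.99 and 4.84 for the other genes with a peak.

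**Figure D1:**
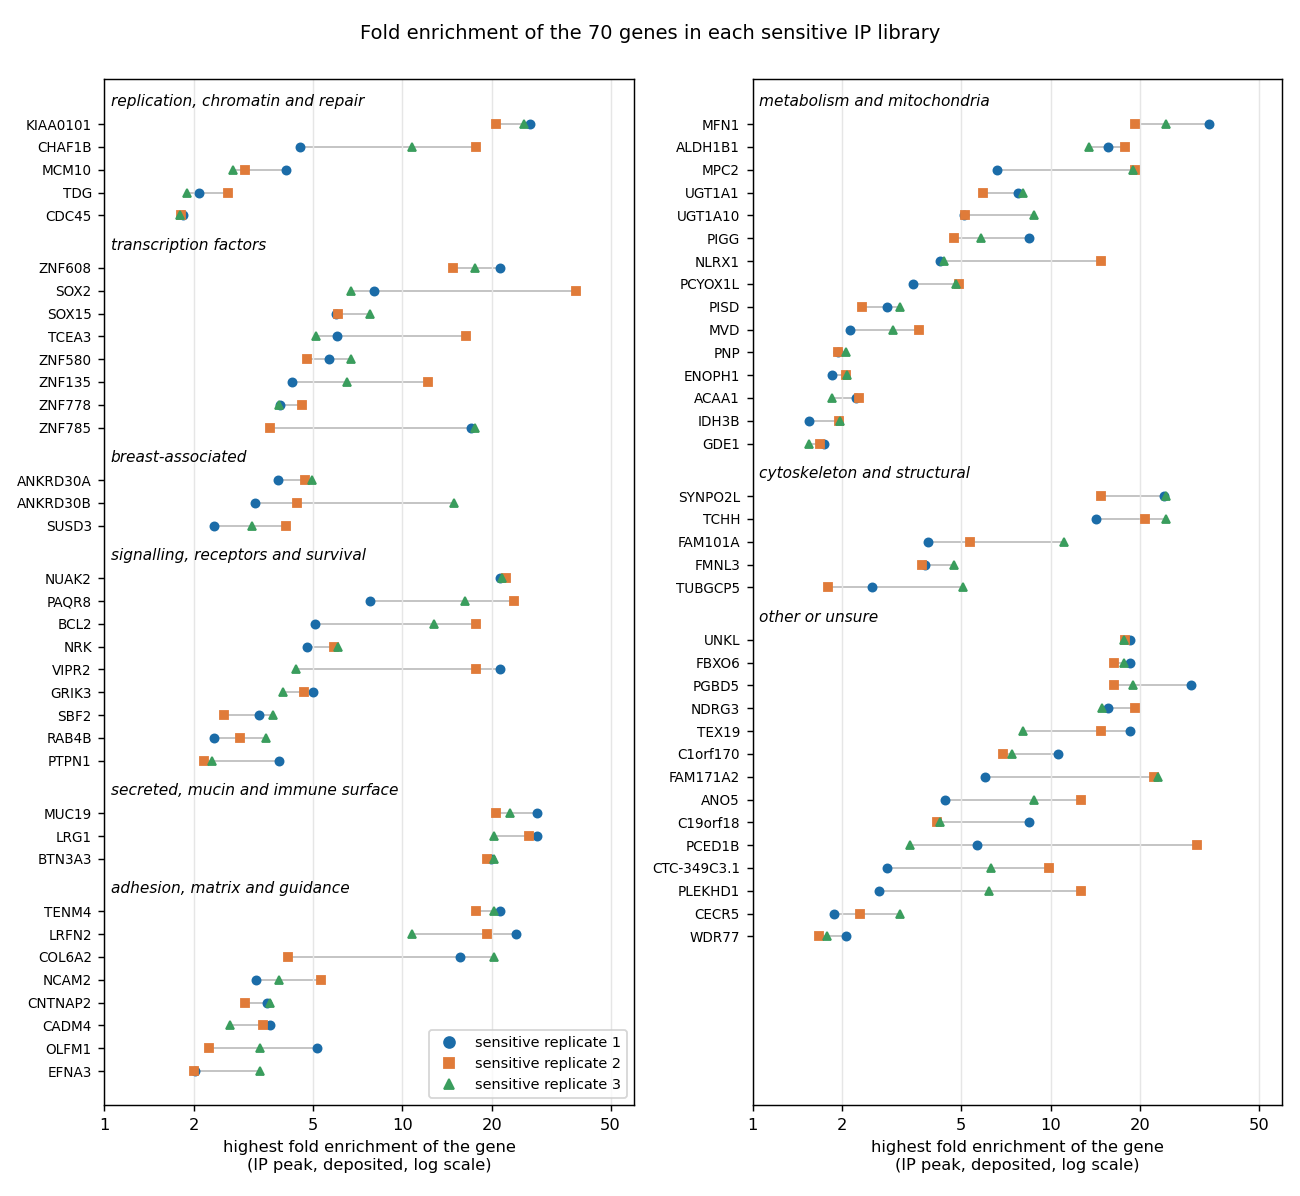
Highest deposited fold enrichment of each of the 70 genes (x axis, log scale, no unit) in the 3 sensitive IP libraries (circle, square and triangle for replicates 1, 2 and 3), with a grey line from the lowest to the highest value and genes grouped by what they are known to do. NUAK2 has the highest minimum, 21.2, and GDE1 the lowest, 1.54; no gene has a resistant value, by the rule.

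A few of the genes combined a moderate fold with a very small p. SOX15, a transcription factor of the SOX family, had the smallest p-values of the set, with folds of 5.98, 6.10 and 7.78 in sensitive replicates 1, 2 and 3 and p-values of 7.94e-26, 2.00e-23 and 6.31e-25. Its region crossed the end of the coding sequence into the 3′ UTR (chromosome 17, 7491496 to 7492513; the genome build is not given in the sources used here, and this holds for all positions of regions). The values of the 3 libraries lay close together. ANKRD30A, a breast differentiation antigen also called NY-BR-1, had folds of 3.83, 4.73 and 4.97, with p-values of 5.01e-21, 6.31e-14 and 6.31e-18. Its main region also crossed the stop codon side of the coding sequence and lay at chromosome 10, 37507911 to 37520437, and a second coding region at 37505270 to 37506755 was also found in all 3 libraries.

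SOX2, a pluripotency and progenitor transcription factor, had folds of 8.02, 38.4 and 6.75, so replicate 2 stood far above the others (chromosome 3, 181430922 to 181431418). The SOX2 peak of smallest p lay in the 3′ UTR in replicates 1 and 3. In replicate 2 it covered coding sequence and 3′ UTR. SUSD3, a membrane protein gene known to be induced by oestrogen in breast cancer cells, had folds of 2.34, 4.06 and 3.12 in the 3′ UTR (chromosome 9, 95847177 to 95847420). GRIK3, a kainate-type glutamate receptor subunit, had folds of 5.02, 4.68 and 3.96 over 5 regions of its 3′ UTR, of which 1 was found in all libraries. ENOPH1, an enzyme of methionine salvage, had folds of 1.85, 2.05 and 2.08 at the end of its coding sequence. These 6 genes were the members whose smallest p was below 1e-05 in each of the 3 sensitive libraries, and 35 of the 70 reached that value in none.

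SOX15 lies opposite MPDU1, a gene of glycosylation on the other strand, and peaks of MPDU1 in resistant libraries overlapped the SOX15 region. MPDU1 had folds of 3.50, 3.86 and 4.05 in resistant replicates 1, 2 and 3, against 2.36, 4.65 and 2.18 in the sensitive ones. FMNL3, a formin that builds actin filaments, likewise lay opposite peaks of the splicing factor gene PRPF40B, with folds of 3.78, 3.70 and 4.73 for FMNL3 in sensitive libraries. The library kit kept strand, per the labels; whether peak calling used it is not given, and reads of the paired genes cannot be told apart if it did not. No member region overlapped a resistant peak of any gene on its own strand. In sensitive libraries, peaks of another gene, DLEC1, lay over the same stretch as those of ACAA1. How reads were divided between DLEC1 and ACAA1 was not analysed here.

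Other members had high folds with p-values less small than those of SOX15 or ANKRD30A. NUAK2, a kinase related to AMP-activated protein kinase, had folds of 21.2, 22.2 and 21.6, close together in the 3 libraries, with p-values of 1.66e-05, 1.12e-05 and 1.10e-05. Both NUAK2 regions were in the 3′ UTR, and the one found in all libraries spanned 205271963 to 205272322 on chromosome 1. The values of replicates 2 and 3 belonged to the other region, which was not listed in replicate 1. MFN1, which fuses mitochondrial outer membranes, had folds of 34.0, 19.2 and 24.3 in the 3′ UTR (chromosome 3, 179112421 to 179112600). FBXO6, a substrate adaptor of a ubiquitin ligase that binds glycoproteins, had 18.4, 16.3 and 17.6, and UNKL, a zinc finger protein gene, had 18.4, 17.7 and 17.6. PGBD5, a gene derived from a transposase, spread more, with 29.7, 16.3 and 18.9.

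Such folds recurred from gene to gene within a library. Of the members with a fold of at least 10, 14 of 21 in replicate 1, 25 of 30 in replicate 2 and 19 of 25 in replicate 3 shared their exact value with another member. In replicate 1, for example, 4 members had 21.2, a value that the whole list gives for 82 peaks on 63 genes. Many of these genes also lay along an edge of the plot of fold against p, where p was close to the largest p found at that fold or above. Within 1.5 times of this largest p lay 14 of 21, 20 of 30 and 19 of 25 members with a fold of at least 10 in replicates 1, 2 and 3, against 353 of 1190, 402 of 1340 and 340 of 1143 other genes with such a fold. The reads behind the recurring values were not analysed here, and their part in the high folds was not tested.

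**Figure D2:**
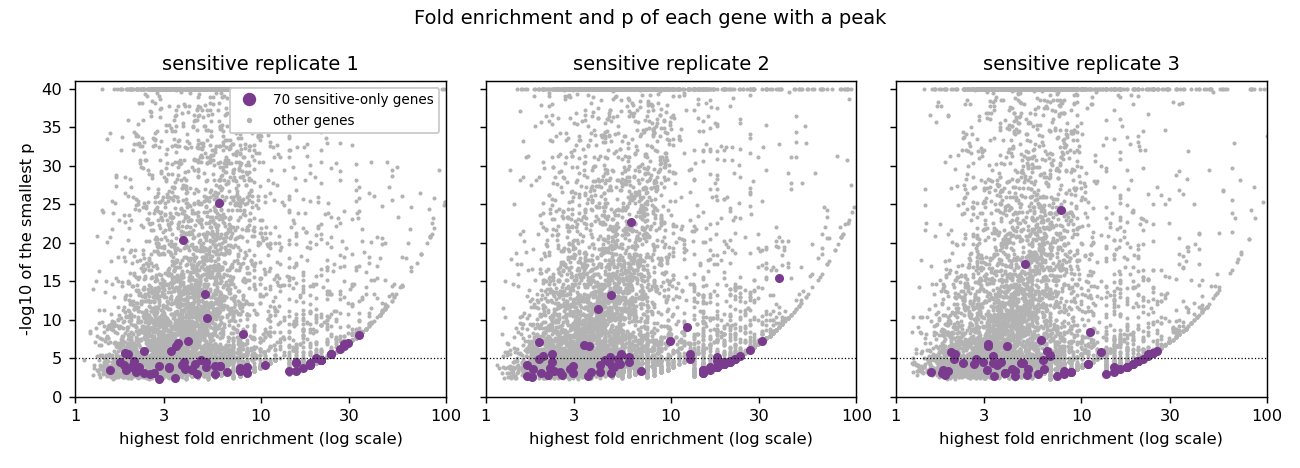
Highest fold enrichment (x axis, log scale) against -log10 of the smallest p (y axis) of each gene with a peak in a sensitive IP library, 1 panel per replicate, with the 70 genes in purple and other genes in grey. The dotted line marks the value 5 on the y axis; many purple points lie under it, those with high folds along the lower right edge. Values above 40 are drawn at 40, and folds above 100 are not drawn.

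As a set, the 70 genes had weaker p-values than the rest. The median smallest p of a gene in sensitive replicates 1, 2 and 3 was 7.25e-05, 6.17e-05 and 4.87e-05 for the members, against 4.27e-10, 4.68e-09 and 6.61e-09 for other genes. These p-values belong to the peaks that the rule used, so they describe the set and are not tested.

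The regions of these genes lay mainly in 3′ UTRs. In sensitive replicates 1, 2 and 3, the share of merged regions wholly within the 3′ UTR was 60.8%, 53.5% and 55.0% for the members, against 36.3%, 36.9% and 36.5% for other genes. The members averaged 56.4% ± 3.86 and other genes 36.6% ± 0.276 (SD, n = 3), a difference of 19.8 percentage points. Coding regions made up 26.8% ± 3.82 of member regions and 38.6% ± 0.177 of the others, and regions that joined coding sequence to 3′ UTR 13.2% ± 1.98 of member regions and 17.0% ± 0.386 of the others (SD, n = 3). In all 3 libraries the 3′ UTR share was higher and both of these shares lower in the members. The exact sign-flip permutation test over libraries, two-sided, gave p = 0.25 for each of the 6 feature classes (adjusted p = 0.25), the smallest p that 3 pairs allow. The rule puts the same members in every sensitive library, and 61 of their 143 regions were found in all 3. Agreement over libraries, the SD and this test therefore cannot decide whether the shares differ beyond these genes.

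**Figure D3:**
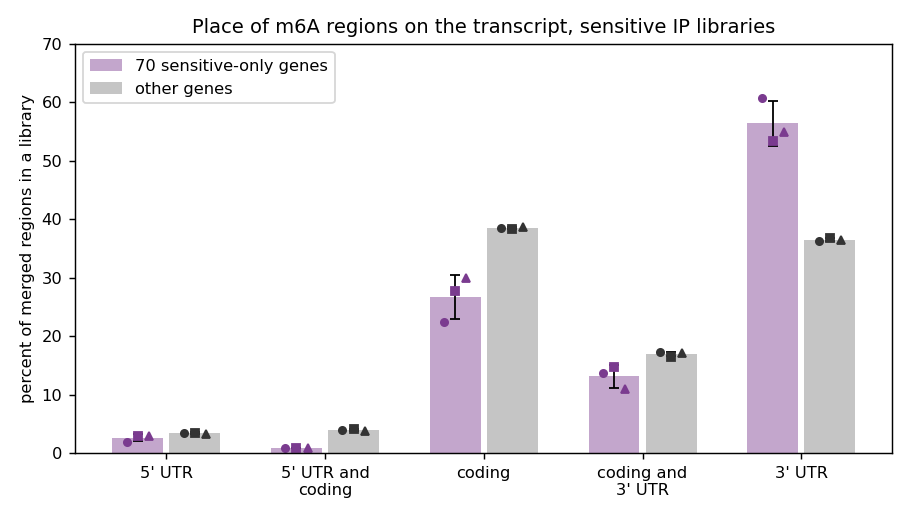
Percent of merged m6A regions in each transcript feature (x axis) for the 70 genes (purple) and other genes (grey) in the sensitive IP libraries; bars are means, error bars SD over 3 libraries, and the points are replicates 1 (circle), 2 (square) and 3 (triangle). The purple 3′ UTR values, from 53.5% to 60.8%, stand above the grey ones, from 36.3% to 36.9%.

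The place of the regions could be set beside that of the resistant-only genes, measured in the resistant libraries. Members exceeded other genes in 3′ UTR share by 19.8 points, and resistant-only genes exceeded theirs by 4.57 points, with 40.6% ± 2.04 against 36.1% ± 0.832 (SD, n = 3). The 2 sets of 3 differences did not overlap (exact permutation test, two-sided, p = 0.1, the smallest possible). In the 5′ UTR the differences had opposite signs, -0.805 points for members and 2.89 points for resistant-only genes (exact permutation test, p = 0.1). Regions that joined coding sequence to 3′ UTR did not separate the sets, with -3.81 points for members and -4.03 points for resistant-only genes (exact permutation test, p = 0.9). Of the 6 classes compared with this exact permutation test, 4 gave its smallest p, and these p-values are not adjusted. Each rule puts the same genes in every library of its line. The test therefore cannot decide whether the 2 gene sets differ, and nothing is read from these p-values. Among regions with a p of at least 1e-05 the member share of 3′ UTR regions was 58.5% ± 3.82, against 41.4% ± 0.708 for other genes (SD, n = 3; exact sign-flip permutation test, p = 0.25).

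Member regions were also short and few per gene. Their median width in exonic bases was 180, 151 and 150 in sensitive replicates 1, 2 and 3, against 241, 239 and 240 for other genes. A single region was found on 76.2% ± 2.18 of the members and 57.4% ± 1.53 of other genes (SD, n = 3). The longest RNA listed for a gene had a median of 3055 ± 8.66 bases for members and 3606 ± 30.7 bases for other genes (SD, n = 3). Each of these differences had one direction in all 3 libraries and p = 0.25 in the exact sign-flip permutation test, its smallest value. The test cannot decide here, since the rule puts the same members in every sensitive library. RNA length belongs to the listed gene, so its agreement over libraries and its small SD are not replication. Width and number of regions come from the peaks that the rule used, so they only describe the set. In 52 members the peak of smallest p fell in the same feature class in all 3 libraries, 33 of them in the 3′ UTR, 10 in coding sequence, 6 over the end of the coding sequence, 1 over its start and 2 in the 5′ UTR.

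Regions within the 5′ UTR were few, with 2.64% ± 0.592 of member regions and 3.45% ± 0.135 of those of other genes (SD, n = 3). An annotated start is shown for 3 genes with such a region or one running on from the 5′ UTR. The antibody also binds m6Am, a methylated adenosine next to the cap of many messenger RNAs, which forms only where the first transcribed base is A. ZNF580, a zinc finger gene, had folds of 5.66, 4.80 and 6.75 in its 5′ UTR (chromosome 19, 56146532 to 56146891). PTPN1, which encodes the tyrosine phosphatase PTP1B, had folds of 3.86, 2.16 and 2.30 over its 5′ UTR and the start of its coding sequence. For TDG, a glycosylase of DNA repair, and BCL2, the inhibitor of apoptosis, a 5′ UTR region was listed in 1 library each, at folds of 2.59 and 6.75. CTC-349C3.1, an unnamed clone-based gene, had folds of 2.83, 9.85 and 6.30 in its 5′ UTR and has no sequence shown. The bases around the annotated start of PTPN1, TDG and ZNF580, from RefSeq (GRCh38.p14), are given with 15 bases before the start in lower case, the first transcribed base in a capital and the next 9 bases in lower case:
PTPN1 (chr20:50510368-50510392, plus strand): cggctgccggttgacAtgaagaagc
TDG (chr12:103965857-103965881, plus strand): tccgtgggggacggtAgaagcctgg
ZNF580 (chr19:55640987-55641011, plus strand): gcgcttccggccggcGccttttccc
The annotated start was A for PTPN1 and TDG and G for ZNF580. Of 35116 RefSeq gene starts, 44.4% were A and 33.6% were G. Whether these regions reach the cap was not analysed here, since the positions of the regions and of the starts come from builds that may differ. Nor was it analysed whether the start shown belongs to the transcript that carries the region. For ZNF580 the row in the authors' deposited table, also in the 5′ UTR, lay elsewhere, at 56153448 to 56153713.

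Grouped by what the genes are known to do, 5 members act in DNA replication, chromatin or repair. KIAA0101, also called PCLAF, is a factor bound to the sliding clamp PCNA, and it had folds of 26.9, 20.7 and 25.7 in its 3′ UTR (chromosome 15, 64657252 to 64657548). CDC45, part of the replicative helicase, stood at the other end with 1.83, 1.81 and 1.79 over coding exons (chromosome 22, 19471503 to 19483542). Its 3 values nearly coincided. MCM10, which helps to start that helicase, had 4.08, 2.96 and 2.70 at the end of its coding sequence (chromosome 10, 13246351 to 13251438). CHAF1B, a subunit of the chromatin assembly factor CAF-1, varied from 4.53 in replicate 1 to 17.7 in replicate 2, in the 3′ UTR. TDG ranged from 1.90 to 2.59.

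Most other replication genes had peaks in both lines. Of 32 listed genes of replication and PCNA partners, 24 had a peak in some library, 14 of them in all 6, and 0 were resistant-only. MCM2, MCM5, POLA1 and CLSPN were among the 14. KIAA0101, MCM10 and CDC45 made up 12.5% of the 24, where members were 0.838% and resistant-only genes 1.78% of all genes with a peak. This list was chosen with KIAA0101 known to be a member. The authors' deposited table compares 12 of the list, and 0 of them had a region called lower in resistant cells, against 2.76% of all genes compared. MCM10 is among the 12, but KIAA0101 and CDC45 are not. At that share 12 genes are too few to read anything from.

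The 8 genes of transcription included, besides SOX15 and SOX2, 5 zinc finger genes and the elongation factor gene TCEA3, with folds of 6.02, 16.3 and 5.13. ZNF608 had folds of 21.2, 14.8 and 17.6 in its coding sequence. ZNF135 had 4.25, 12.2 and 6.53, ZNF785 had 17.0, 3.59 and 17.6, and ZNF778 had 3.89, 4.62 and 3.86. For ZNF778 the value of replicate 3 came from another region than those of replicates 1 and 2. Each ZNF785 value came from a different region, in coding sequence for replicate 2 and in the 3′ UTR for the others. The values of these genes therefore do not show how steady a region was between libraries. By name, 5 of the 375 genes starting with ZNF that had a peak were members, or 1.33%, and 2 were resistant-only. For comparison, 0.838% of all genes with a peak were members and 1.78% resistant-only.

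The 3 genes known from breast tissue or breast cancer were ANKRD30A, SUSD3 and ANKRD30B, a paralog of ANKRD30A whose reads may be shared with it. ANKRD30B had folds of 3.19, 4.43 and 14.9, all from coding exons, with 1 of its 6 regions found in all libraries (chromosome 18, 14850368 to 14851912). The values of replicates 1 and 3 belonged to other regions, each listed in that replicate alone.

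Signalling genes numbered 9: NUAK2, BCL2, GRIK3, PTPN1, NRK, PAQR8, RAB4B, SBF2 and VIPR2. BCL2 had folds of 5.10, 17.7 and 12.8 and 2 of its 5 regions in all libraries, both in the 3′ UTR (chromosome 18, 60794174 to 60794478 and 60795253 to 60795587). NRK, a kinase of the germinal centre kinase family, had 4.78, 5.91 and 6.08 in coding sequence on the X chromosome. PAQR8, a membrane progesterone receptor, had 7.79, 23.7 and 16.2, and VIPR2, a receptor for vasoactive intestinal peptide, 21.2, 17.7 and 4.39. The small GTPase RAB4B and the myotubularin-related SBF2 stayed between 2.34 and 3.68 in every library.

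Of 21 listed kinases related to AMPK or acting with it, 13 had a peak in some library and 5 in all 6. NUAK2 was the member among them, while PRKAA1, the catalytic subunit alpha 1 of AMPK, and SIK1, a salt-inducible kinase, were resistant-only. Over all genes with a peak, 0.838% were members and 1.78% resistant-only. In the authors' deposited table STK11 (the upstream kinase LKB1), MARK2 and CAB39 each had a region called higher among 9 compared, and 0 had a region called lower, where over all genes compared 14.2% had a region called higher and 2.76% one called lower. As with the other lists, NUAK2 was a known member when this list was chosen.

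LRG1, MUC19 and BTN3A3 are secreted or surface proteins, and all had folds of 19.2 or more in every library. LRG1, a leucine-rich glycoprotein of the acute phase response, had 28.3, 26.6 and 20.3 (chromosome 19, 4537522 to 4537998, 3′ UTR). MUC19, a gel-forming mucin, had 28.3, 20.7 and 23.0. Its 15 regions lay side by side over the last coding and 3′ UTR stretch listed (chromosome 12, 40876742 to 40884983), and 5 of them were found in all 3 libraries. The other 5 mucin genes with a peak, MUC1, MUC2, MUC5B, MUC6 and MUC20, had one in all 3 resistant libraries, as did 5646 of all 8353 genes with a peak. LRG1 was the 1 member among 3 acute phase genes with a peak, too few to read anything from at a share of 0.838% over all genes.

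BTN3A3, a butyrophilin linked to the recognition of cells by gamma delta T cells, had folds of 19.8, 19.2 and 20.3 in its coding sequence (chromosome 6, 26452068 to 26452395). Its paralog BTN3A2 just missed the rule, with a peak at 5.05 in resistant replicate 1 and folds of 21.2, 22.2 and 20.3 in the sensitive libraries. BTN3A1 had a peak in all 6 libraries. These genes are close copies of each other, so the counting of reads between them is uncertain. Of 12 interferon response genes with a peak, 0 were members, too few genes to read anything from at a share of 0.838% over all genes. The HLA genes listed had a peak in no library.

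Adhesion, matrix and guidance genes were 8, and each had a region found in all 3 libraries. Many of them are known from neurons. TENM4, a teneurin, had folds of 21.2, 17.7 and 20.3 at the end of its coding sequence (chromosome 11, 78369091 to 78380063), and LRFN2, a synaptic adhesion protein, had 24.1, 19.2 and 10.8. COL6A2, a chain of collagen VI, had 15.6, 4.14 and 20.3. The remaining 5, the neurexin-like CNTNAP2, the cell adhesion molecules CADM4 and NCAM2, the secreted olfactomedin OLFM1 and the ephrin EFNA3, lay between 2.00 and 5.32 in every library.

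The largest group, 15 genes, encodes enzymes, transporters and mitochondrial proteins. Besides MFN1, ALDH1B1, a mitochondrial aldehyde dehydrogenase, was high, with 15.6, 17.7 and 13.5 in its 3′ UTR. MPC2, a subunit of the mitochondrial pyruvate carrier, had 6.61, 19.2 and 18.9. At the low end were GDE1, a phosphodiesterase of glycerophospholipids, with 1.74, 1.68 and 1.54, and IDH3B, a subunit of the citric acid cycle enzyme isocitrate dehydrogenase, with 1.55, 1.95 and 1.97. PNP, a purine salvage enzyme, was steady at 1.94, 1.94 and 2.05. ACAA1, a peroxisomal thiolase, MVD, an enzyme of the mevalonate pathway, and PISD, the mitochondrial phosphatidylserine decarboxylase, lay between 1.84 and 3.61. NLRX1, PCYOX1L, PIGG, UGT1A1 and UGT1A10 lay between 3.44 and 14.8.

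Cytoskeletal or structural products are made by 5 members. SYNPO2L, an actin-associated protein of muscle, had folds of 24.1, 14.8 and 24.3, and the hair protein gene TCHH 14.2, 20.7 and 24.3. FAM101A, FMNL3 and the gamma tubulin complex gene TUBGCP5 lay between 1.79 and 11.1, TUBGCP5 lowest with 2.52, 1.79 and 5.06. The other 14 members have varied or less certain roles: ANO5, C19orf18, C1orf170, CECR5, CTC-349C3.1, FAM171A2, FBXO6, NDRG3, PCED1B, PGBD5, PLEKHD1, TEX19, UNKL and WDR77. Their folds ran from 1.67 for WDR77, a subunit of the methylosome, to 31.0 for PCED1B, each in replicate 2.

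The rule has hard edges, and the genes of highest fold just outside it had folds as high as members or higher. The 5 members with the lowest minimum fold were GDE1, IDH3B, WDR77, CDC45 and TUBGCP5, at 1.54, 1.55, 1.67, 1.79 and 1.79. A peak in 3 sensitive and 1 resistant library was found for 105 genes, and in 2 sensitive and no resistant library for 113. In the first set, the phospholipase gene PLCD3 had 8.96 in resistant replicate 1 and 31.1, 38.4 and 25.7 in the sensitive libraries. After BTN3A2 came EIF3L, ZNF620 and C14orf79, with resistant folds of 18.6, 16.2 and 16.7 and sensitive folds from 17.6 to 33.8. The second set was led by HCAR2, with folds of 24.1 and 24.3 in the 2 sensitive libraries that list it, followed by GNB5, CRYGS, TNNT2 and SMC1B, whose folds ran from 19.2 to 29.7.

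In a repeated choice on fewer libraries, the chosen genes had a peak more often in the left-out sensitive than in the left-out resistant library. Genes were chosen again on 2 libraries of each line, in all 9 ways, and then read in the library of each line that was left out. The choice gave 131 to 200 genes. On average 33.2% of them (range 25.2% to 42.0%) had a peak in the left-out resistant library, and 65.1% (range 57.5% to 74.05%) had one in the left-out sensitive library. Over all genes, 78.0% to 81.6% had a peak in a resistant library and 71.6% to 76.5% in a sensitive one. For the mirror choice the shares were 69.3% in the left-out resistant library and 34.9% in the left-out sensitive library. The 9 choices share libraries and genes, so no test was made.

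**Figure D4:**
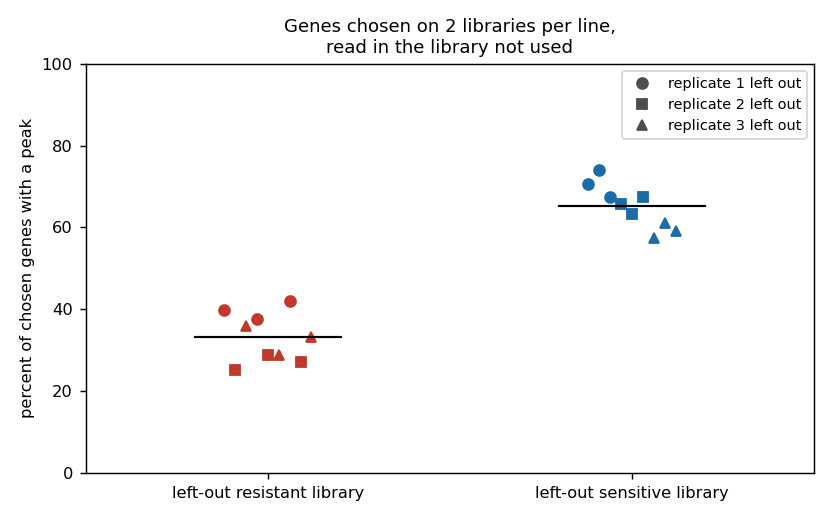
Percent of genes chosen on 2 resistant and 2 sensitive libraries that had a peak in the left-out resistant library (red) and in the left-out sensitive library (blue), for the 9 ways to leave out 1 library of each line; symbols give the replicate left out and lines the means, 33.2% and 65.1%. The red values reach at most 42.0% and the blue ones begin at 57.5%.

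The authors' own comparison of the lines, a fold of resistant over sensitive cells with a p for each region, covers 40 of the 70 genes. A region was called lower in resistant cells for 7 of the 40 and called higher for 0. Over the whole comparison, 2.76% of 5553 genes had a region called lower and 14.2% a region called higher. The rule uses the same contrast, so nothing is read from this difference. The median fold of a gene in the authors' deposited table was 0.689 at the middle of the 40 members and 1.25 over all genes. This median fold was below 1 for 33 of the 40 members, or 82.5%, and for 26.4% of all genes.

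Called lower in the authors' deposited table were MUC19, NLRX1, CTC-349C3.1, MVD, ALDH1B1, ACAA1 and WDR77. Among these members, the MUC19 region (chromosome 12, 40879379 to 40880458) had the lowest called fold in the authors' deposited table, 0.104. The other MUC19 rows reached 0.530 and were not called. NLRX1 encodes a mitochondrial NOD-like receptor, and 2 of its 5 rows in the authors' deposited table were called, at 0.332 and 0.334. In the authors' deposited table MVD stood at 0.536 (deposited p = 0.00708) and ALDH1B1 at 0.542 (deposited p = 0.0468). WDR77 stood at 0.666 in the authors' deposited table (deposited p = 0.00251), at the edge of the authors' limit for a call. ACAA1 had 1 of 6 rows called, at 0.638, and CTC-349C3.1 stood at 0.473 in the authors' deposited table. ANKRD30A, with some of the strongest peaks, stood at 0.564 to 0.607 in the authors' deposited table and was not called.

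For 7 members the median fold in the authors' deposited table was above 1, against their label as sensitive-only. These were ZNF135 (2.48), PCED1B (2.04), NUAK2 (1.68), ZNF608 (1.65), ZNF580 (1.498), ANKRD30B (1.49) and LRFN2 (1.40), none of them called. The NUAK2 region compared there (chromosome 1, 205271187 to 205271426) overlaps none of its sensitive peaks, and neither do those of PCED1B and ZNF580. The ZNF608 rows over its own peak stood at 0.390 and 0.398 in the authors' deposited table, and its rows elsewhere at 1.65 or more. Among the 34 members with a compared region over one of their own peaks, the median fold of these regions was below 1 for 31 and above 1 for ANKRD30B, LRFN2 and ZNF135. A share over all genes, counted in this way, is not given here. EFNA3 is counted below 1 by its median of 0.609, but the row over its peak found in all 3 sensitive libraries stood at 1.202 in the authors' deposited table.

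**Figure D5:**
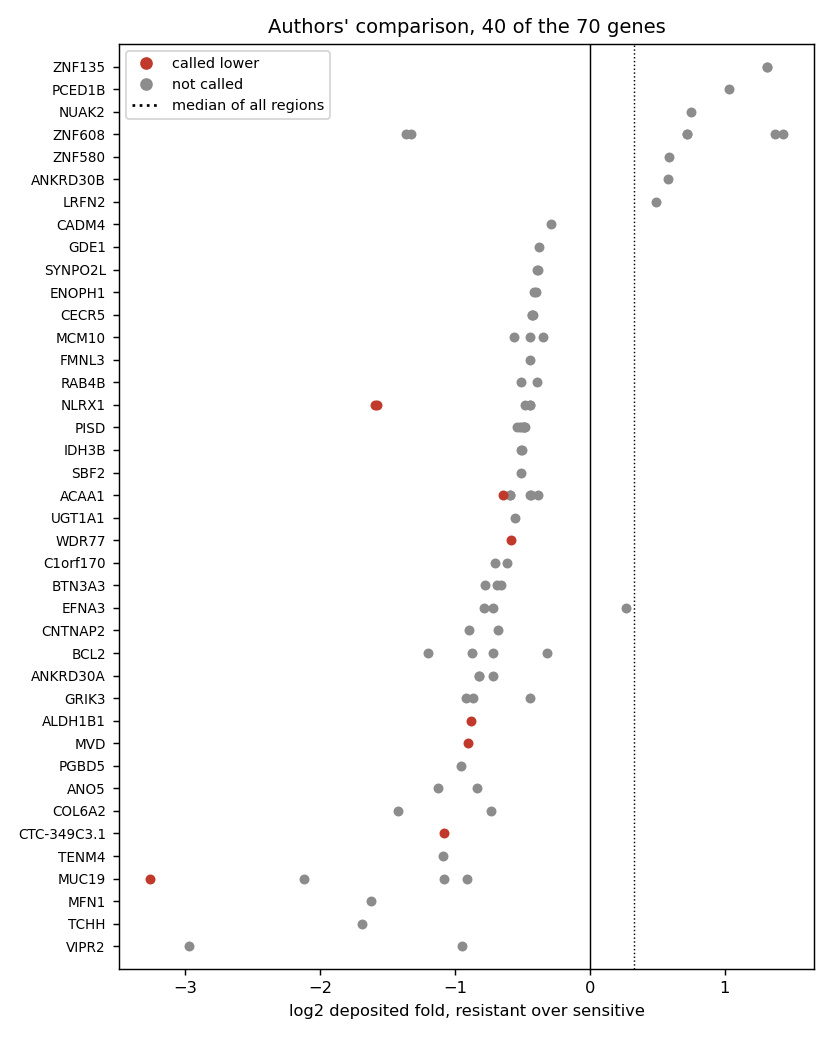
Log2 of the deposited fold, resistant over sensitive (x axis), of every compared row of the 40 members in the authors' deposited table, 1 line per gene in the order of its median; red points are rows called lower and grey points rows without a call. The solid line marks no difference and the dotted line the median of all regions, 0.32; 7 genes have a median right of 0.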

How the data were processed

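MeRIP-seq peak lists of 6 IP libraries, 3 per line, and the authors' comparison tables were used. The submitters' processing notes name HISAT2. Neither the peak caller, the genome build nor the denominator of the fold is given in the sources used here. Per the file headers, each peak has a fold enrichment (a ratio) and a p-value, and each compared region a fold and a p-value, all deposited by the authors; whether p was adjusted is not stated. Group and replicate follow the sample titles. Lists named s1 to s3 were taken as sensitive replicates 1 to 3 by letter and number, since no label names them.

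Members were found by gene name in Python 3.11.15 with pandas 2.3.3. Rows of a gene sharing at least 1 exonic base were merged, and a region took the feature class of its row with the smallest p. Shares and medians were compared over the 3 sensitive libraries with an exact sign-flip permutation test, pairing members and other genes within a library. The authors' called lists hold exactly the regions with p under 0.05 whose fold reaches 1.5 in either direction. Files count from 0; positions here count from 1. Of 70 names, 65 were current symbols, 4 older ones and 1 unmatched. The code was tested on simulated data. Calls of higher regions in the replication list and 1 sequence are not reported here.

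The members and lists were chosen with earlier results of these data known. Named with values were the 10 members of highest minimum fold, the 10 of smallest p, those called, those of lowest fold, list members and genes just outside the rule; values of other members, given by role, were chosen after they were seen.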

Additional observations from a re-analysis of the deposited data

How the results depend on the processing

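The number of genes follows the rule closely. From 70 genes it came to 62 at a peak p below 1e-05, of which 6 were members, to 44 at a fold of at least 5, of which 27 were members, and to 113 with the same number of peaks per list, of which 58 were members. In that last setting 101 genes were resistant-only, against 149 by the main rule. The number of sensitive-only genes also changed in other settings. This number was 183 with a peak in at least 2 sensitive libraries, 175 with a peak in at most 1 resistant library, 70 with current symbols and 69 with UGT1A1 and UGT1A10 counted once, an alternative chosen after seeing the data. Leaving out 1 library gave 97 to 116 genes, the highest values being 116 without sensitive replicate 3, 115 without resistant replicate 1 and 109 without sensitive replicate 2.

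The 3′ UTR excess kept its direction in all settings tried, between 17.2 and 21.7 points. The share over coding sequence and 3′ UTR, lower in members by -3.81 points, turned to 3.70 points among regions with a p of at least 1e-05, a setting chosen after seeing the data; the cause was not tested. Libraries pair members with other genes; without this replicate block the exact permutation test gave p = 0.1 for the differences of 19.8, -11.8 and -3.81 points, its smallest value, where the paired test gave 0.25; with 3 libraries neither can reach 0.05.

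For left-out sensitive libraries, 65.1% of the chosen genes had a peak, 49.9% at a fold of at least 5, and 57.5% to 74.05% over the 9 choices; for resistant libraries these choices ranged from 25.2% to 42%. Members called lower in the deposited comparison were 7, then 4 with Benjamini-Hochberg adjustment (ACAA1, MUC19, MVD and WDR77) and 13 after division by the median fold, where 7.35% of all genes were called. The share of all genes called after the Benjamini-Hochberg adjustment is not given here, so nothing is read from the 4. Counting either strand, 2 members instead of 0 lay over a resistant peak. The fixed lists held 7 members; at a peak p below 1e-05 they held 4 sensitive-only genes, BTN3A1, BTN3A2, MCM5 and MUC1, none of them among the 7. Rows instead of regions raised the mean number per member to 2.49. Read depth is unknown, which limits any statement on peaks that are not listed.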
